A study of Spodoptera frugiperda with 15 samples.

Results

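Pitchoune is a DEAD-box RNA helicase first described in Drosophila, where it sits in the nucleolus, is needed for growth of the larva and is switched on by the growth regulator Myc. Its human counterpart is DDX18 and its budding yeast counterpart is Has1, both of which act in the making of ribosomal subunits. Helicases of this family use ATP to unwind or remodel RNA, and in the nucleolus they release small nucleolar RNAs from the growing pre-ribosome. In the fall armyworm, Spodoptera frugiperda, the deposited gene table describes 6 genes as pitchoune and 2 as DDX18-like, and all 8 lie close together on one chromosome sequence.

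These 8 genes, of 20784 in the table, were taken by name as a cluster within 500 kb. They were chosen by their FPKM in these same 15 libraries, which had already been seen. Their levels, copy shares and summed level are therefore given as a description, with no test. No other gene of the table is described as pitchoune or DDX18, and all 8 passed the filter on low counts that left 15505 genes for testing. That filter asks for enough counts in only as many libraries as 1 group holds, so passing it says little.

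RNA-seq was run on poly(A) RNA of wild-type insects sampled as whole bodies, with 15 libraries, 3 in each of 5 groups. The treated groups received emamectin benzoate, an avermectin that opens chloride channels gated by glutamate, a compound the labels name tetrazolidamide, cyantraniliprole, a diamide that acts on ryanodine receptors, or spinetoram, a spinosyn that acts on nicotinic acetylcholine receptors. The fifth group was the control. The labels give no dose, exposure time, developmental stage or sex, nor do they state if a group's 3 libraries are separate animals or cohorts. The p-values thus reflect only how much these samples vary. Every comparison uses the same 3 control libraries.

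Totals ran from 50600821 to 77183281 count units per library, and 1 read pair adds about 3.78 units. The 8 helicase genes together drew 1708 to 4163 units per library, or about 452 to 1100 read pairs, so the scarce copies rest on few molecules. Markers of muscle, midgut, epidermis, fat body and nervous system were all present in each library. Muscle genes summed to 51700 to 96100 FPKM (fragments scaled to gene length and library size) and nervous system genes to 85.0 to 115 FPKM. A multidimensional scaling set the 3 tetrazolidamide libraries apart from the other 12 along its leading axis (23.4% of the variance).

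The cluster consists of 2 sets of 4 genes in the same order, on the same strands and with the same descriptions. Set A runs over 21202 bp and set B over 19618 bp, 94303 bp further along, and the whole cluster spans 135122 bp from position 7915231 to 8050352 of its chromosome sequence. The genome build is not given in the sources used here. Each set opens with a DDX18-like gene on the plus strand, LOC118269715 (7915231 to 7921536) in set A and LOC118269714 (8030735 to 8036302) in set B. A pitchoune gene on the minus strand follows, LOC118269708 (7921596 to 7927415) in set A and LOC118269706 (8036328 to 8041783) in set B. The next gene, also on the minus strand, is LOC118269705 (7928194 to 7931647) in set A and LOC118269709 (8042189 to 8045664) in set B. A plus-strand pitchoune gene closes each set, LOC118269712 (7932839 to 7936432) in set A and LOC118269713 (8046569 to 8050352) in set B.

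The annotation in the table gives all 8 genes the RNA helicase activity term. It adds the nucleolus and cell growth terms to 4 of them, LOC118269708, LOC118269706, LOC118269712 and LOC118269713, which are the matching genes of both sets. How alike the copies are in sequence was not analysed here. A name table from another assembly lists only 1 gene of each matching pair, as given at the end. Where copies are near-identical, the counting may have split their reads between them, so single-copy levels are uncertain and the sum is less exposed to this.

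**Figure D1:**
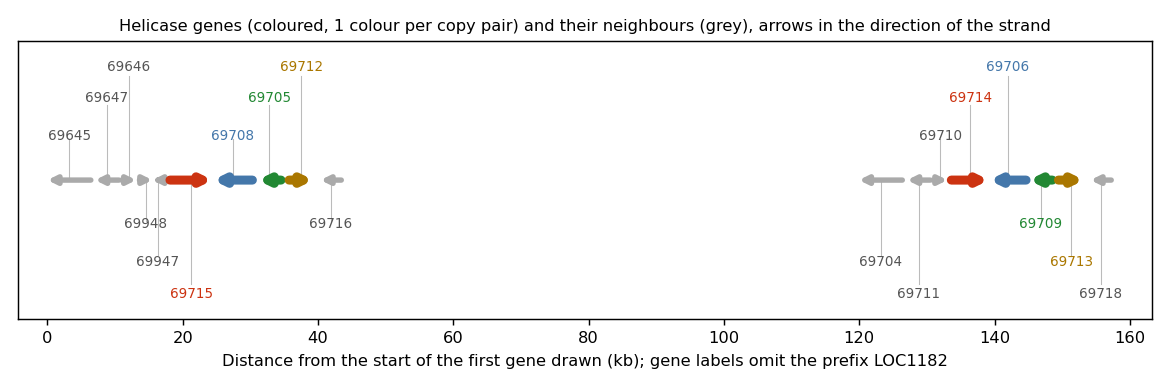
Map of the helicase genes and the genes around them, drawn as arrows in the direction of the strand against distance in kb from the start of the first gene drawn. Matching helicase genes of set A (left) and set B (right) share a colour, other genes are grey, and the coloured run of 4 arrows appears in the same order on both sides.

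LOC118269708, the minus-strand pitchoune gene of set A with the nucleolus term, had the highest mean level of the 8, at 9.14 FPKM over the 15 libraries. Its level was 4.25, 6.67 and 5.92 FPKM in the emamectin benzoate libraries, 19.3, 19.9 and 15.5 in tetrazolidamide, 6.03, 7.90 and 11.6 in cyantraniliprole, 2.92, 2.75 and 6.39 in spinetoram, and 7.81, 12.6 and 7.44 in control. All tetrazolidamide libraries were above every other library, and all emamectin benzoate and spinetoram libraries were below every control, while cyantraniliprole overlapped control. The group means were 5.61 ± 1.24, 18.2 ± 2.35, 8.52 ± 2.85, 4.02 ± 2.06 and 9.29 ± 2.89 FPKM in the same order (SD, n = 3 each). The tetrazolidamide mean was 1.96 times the control mean. Emamectin benzoate came to 0.604 and spinetoram to 0.433 of the control mean.

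LOC118269706 is the matching gene of set B, with the next highest mean level, 4.90 FPKM. It stood at 9.33, 7.73 and 5.68 FPKM in emamectin benzoate, 0.0804, 0.154 and 0 in tetrazolidamide, 8.01, 6.06 and 3.05 in cyantraniliprole, 7.69, 6.07 and 4.52 in spinetoram, and 6.31, 3.78 and 5.06 in control. Here the tetrazolidamide libraries were the lowest of the 15 and far below the rest, the reverse of the copy in set A, and the other 3 treatments overlapped control. Over the 3 tetrazolidamide libraries the gene drew 29 units (about 7.67 read pairs), against 1779 units (471 read pairs) over the 3 controls. Scaled to library totals, the tetrazolidamide level was 67.1-fold lower, and 41.6-fold lower without tetrazolidamide 3. Without tetrazolidamide 2 the group held 10 units, under the floor of 3 read pairs, and no fold is given.

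The second minus-strand pitchoune pair showed the same arrangement at lower levels. LOC118269705 of set A had 2.49, 2.68 and 2.34 FPKM in emamectin benzoate, 7.53, 7.21 and 6.45 in tetrazolidamide, 2.59, 3.66 and 4.60 in cyantraniliprole, 1.79, 2.31 and 2.59 in spinetoram, and 2.97, 4.46 and 3.48 in control. Tetrazolidamide libraries were again the highest, at 1.94 times the control mean, and the emamectin benzoate and spinetoram libraries lay below all controls. LOC118269709 of set B had 3.17, 3.20 and 2.54 FPKM in emamectin benzoate, 0.484, 0.250 and 0 in tetrazolidamide, 2.33, 2.82 and 1.11 in cyantraniliprole, 2.50, 3.11 and 1.57 in spinetoram, and 2.45, 1.36 and 2.32 in control. Tetrazolidamide was below and emamectin benzoate above all controls, and cyantraniliprole and spinetoram overlapped them. The 3 tetrazolidamide libraries held 94 units of LOC118269709 against 773 in the 3 controls, 8.99-fold lower after scaling to library totals. That fold rested on single libraries, at 17.8 without tetrazolidamide 1 and 5.57 without tetrazolidamide 3, which held none.

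LOC118269712, the plus-strand pitchoune gene of set A, had 0.681, 0.953 and 1.14 FPKM in emamectin benzoate, 3.25, 4.72 and 4.01 in tetrazolidamide, 1.08, 1.31 and 1.81 in cyantraniliprole, 0.741, 0.785 and 1.44 in spinetoram, and 1.42, 1.68 and 0.852 in control. The tetrazolidamide libraries were above the other 12, with a mean 3.03 times that of control, and the other treatments overlapped control. LOC118269713, its match in set B, had 1.35, 0.998 and 0.965 FPKM in emamectin benzoate, 0 in each tetrazolidamide library, 0.824, 0.650 and 0.449 in cyantraniliprole, 0.738, 0.681 and 0.483 in spinetoram, and 0.759, 0.298 and 0.663 in control. No read pair was assigned to LOC118269713 in tetrazolidamide, which against a floor of 3 read pairs over the group is at least 17.7-fold lower than control after scaling to library totals (at least 11.0-fold without tetrazolidamide 3). The emamectin benzoate libraries were above all controls.

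The DDX18-like genes had the lowest mean level of each set, 1.18 FPKM in set A and 0.351 FPKM in set B. LOC118269715 of set A had 1.02, 0.993 and 1.14 FPKM in emamectin benzoate, 2.09, 2.48 and 1.44 in tetrazolidamide, 1.08, 1.11 and 0.990 in cyantraniliprole, 0.546, 0.321 and 1.36 in spinetoram, and 1.11, 1.37 and 0.667 in control. The tetrazolidamide libraries were above all controls by a narrow margin, at 1.91 times the control mean, and the other treatments overlapped control. LOC118269714 of set B had 0.789, 0.813 and 0.591 FPKM in emamectin benzoate, 0 in each tetrazolidamide library, 0.363, 0.418 and 0.0319 in cyantraniliprole, 0.551, 0.752 and 0.367 in spinetoram, and 0.280, 0.0733 and 0.227 in control. Emamectin benzoate and spinetoram were above all controls, at 3.78 and 2.88 times their mean, and tetrazolidamide was below, at least 6.36-fold lower after scaling to library totals against the same floor (at least 3.95-fold without tetrazolidamide 3). The 3 controls held 66 units of LOC118269714 in all, about 17.5 read pairs.

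**Figure D2:**
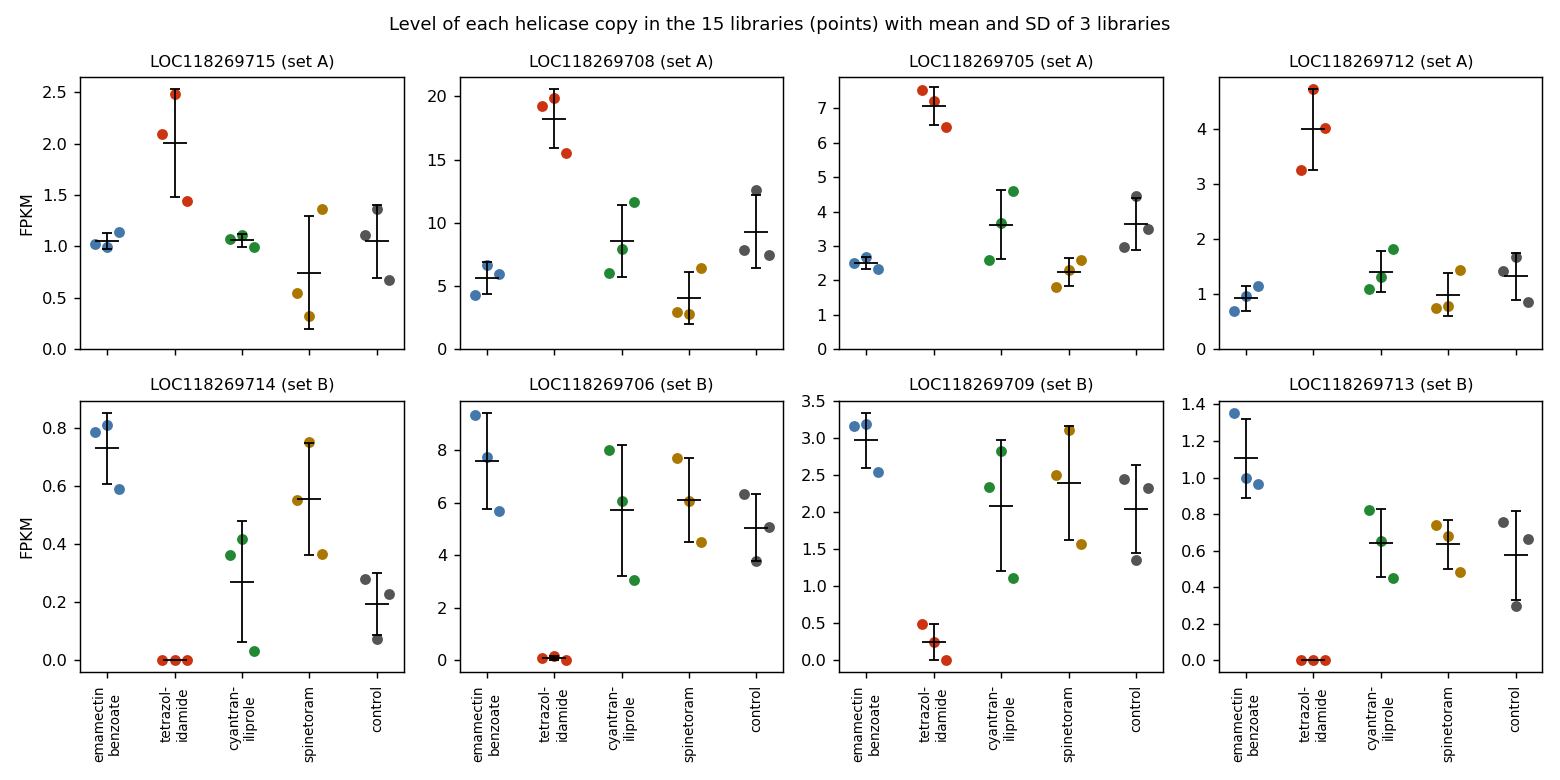
FPKM of each helicase copy in the 15 libraries (points), with the group mean and SD of 3 libraries in black; set A is in the upper row and set B in the lower, and matching genes share a column. In tetrazolidamide the 4 upper genes are at their highest levels and the 4 lower genes at or near 0.

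Counted over the 8 genes, tetrazolidamide libraries were above all controls for the 4 genes of set A and below all controls for the 4 of set B. Over all tested genes, 34.9% had no overlap between tetrazolidamide and control in FPKM, 13.1% higher and 21.8% lower. Emamectin benzoate was above all controls for 3 genes of set B and below for 2 of set A, where 24.7% of tested genes had no overlap (10.7% higher and 14.0% lower). Spinetoram was above all controls for 1 gene and below for 2, where 22.6% of tested genes had no overlap (7.96% higher and 14.7% lower). Cyantraniliprole overlapped control for all 8, where 21.6% of tested genes did not overlap (12.9% higher and 8.71% lower). Since the members were chosen with these levels known, nothing is read from these counts. When FPKM was rescaled with TMM factors (a correction for library composition), the counts were the same except for emamectin benzoate, where LOC118269708 then overlapped control.

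A gene at 0 in all 3 libraries of 1 group and above 0 in each of the other 12 was rare. There were 36 such genes for tetrazolidamide, 0.232% of those tested, and LOC118269713 and LOC118269714 were among them. Both were chosen with these levels known, so nothing is read from their place there. LOC118269714 had only 4 units in cyantraniliprole 3 and 8 in control 2, each under 11.34 units, the floor of 3 read pairs. The other 4 groups had 1 or 2 such genes each, none of them in the cluster.

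The summed level of the 8 copies varied far less than its parts. It was 23.1, 24.0 and 20.3 FPKM in emamectin benzoate, 32.7, 34.7 and 27.5 in tetrazolidamide, 22.3, 23.9 and 23.7 in cyantraniliprole, 17.5, 16.8 and 18.7 in spinetoram, and 23.1, 25.6 and 20.7 in control. Tetrazolidamide libraries had the highest sums and spinetoram the lowest, neither overlapping control, while the other 2 treatments did. The means were 22.5 ± 1.94, 31.6 ± 3.76, 23.3 ± 0.874, 17.7 ± 0.985 and 23.1 ± 2.46 FPKM in that order (SD, n = 3 each).

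Relative to control, the mean sum was 0.971 in emamectin benzoate, 1.37 in tetrazolidamide, 1.01 in cyantraniliprole and 0.763 in spinetoram. With TMM rescaling the spinetoram libraries, at 17.5 to 19.1 FPKM, overlapped the controls at 18.4 to 25.8, and tetrazolidamide stayed above at 32.5 to 34.5. Across the 15 libraries the coefficient of variation of the sum was 21.3%, against 46.3% to 84.8% for the 8 single copies and a median of 40.4% for tested genes. These are not matched in level, since the sum had a mean of 23.6 FPKM and tested genes a median of 2.66 FPKM. Fewer cells that express these genes and less of their RNA per cell cannot be told apart in whole-body samples.

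**Figure D3:**
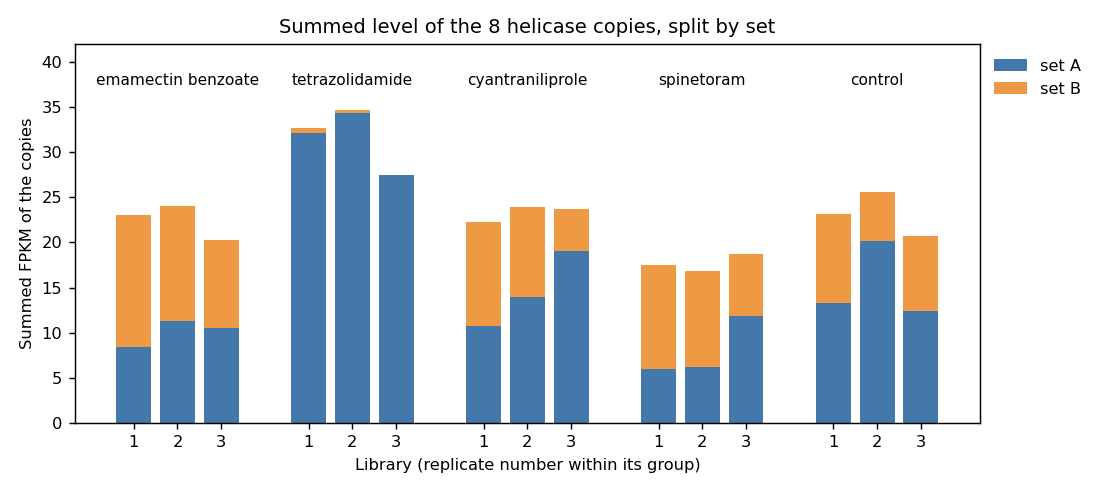
Summed FPKM of the 8 helicase copies in each library, with the part from set A in blue and from set B in orange. The bars stand between 16.8 and 34.7 FPKM, and the orange part is almost absent from the tetrazolidamide libraries.

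The share of the sum held by set B separated tetrazolidamide from every other group. Set B made up 63.4%, 53.0% and 48.2% of the sum in emamectin benzoate, 1.73%, 1.16% and 0% in tetrazolidamide, 51.7%, 41.6% and 19.6% in cyantraniliprole, 65.7%, 63.2% and 37.1% in spinetoram, and 42.4%, 21.5% and 39.9% in control. Outside tetrazolidamide the share ran from 19.6% to 65.7%, and emamectin benzoate was the only treatment whose 3 libraries were all above the 3 controls. In tetrazolidamide 3 a count of 0 allows a share of up to 0.287% of the units, which covers counting error only.

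Set A summed to 10.1 ± 1.48, 31.3 ± 3.51, 14.6 ± 4.15, 7.99 ± 3.29 and 15.3 ± 4.21 FPKM in emamectin benzoate, tetrazolidamide, cyantraniliprole, spinetoram and control (SD, n = 3 each). Set B summed to 12.4 ± 2.45, 0.323 ± 0.291, 8.70 ± 3.61, 9.68 ± 2.41 and 7.86 ± 2.18 FPKM in the same groups. Over the 3 tetrazolidamide libraries set B drew 123 units against 2802 in control, 24.9-fold lower after scaling to library totals. Tetrazolidamide 1, 2 and 3 held 71, 52 and 0 of those units, and the fold was 41.0 without tetrazolidamide 1 and 15.4 without tetrazolidamide 3. LOC118269708 alone held 57.6 ± 1.16% of the summed level in tetrazolidamide, against 39.7 ± 8.36% in control.

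Replicates of 1 group also differed in the share. Control 2 and cyantraniliprole 3 had the lowest shares of set B outside tetrazolidamide, 21.5% and 19.6%. The 4 matching pairs did not share one value within a library. In the 12 libraries outside tetrazolidamide their set B shares spanned 9.36 to 31.8 percentage points (median 19.3), and the DDX18-like pair had the lowest share in 10 of the 12. In the 3 controls the DDX18-like pair had 20.1%, 5.09% and 25.4% in set B, and the pair LOC118269712 and LOC118269713 had 34.8%, 15.1% and 43.8%. The 5.09% rests on 8 units of LOC118269714, and the 3.12% of cyantraniliprole 3 on 4 units, each under the floor of 11.34 units. How much of the spread between pairs is counting error was not tested. The remaining pairs had higher levels. The difference between their 2 shares cannot exceed the range of all 4, so the 2 measures are not compared. In the same controls, the set B share of the pair LOC118269708 and LOC118269706 was 44.7%, 23.0% and 40.5%, and that of the pair LOC118269705 and LOC118269709 was 45.2%, 23.3% and 40.0%. These 2 shares differed by a median of 2.58 percentage points over the 15 libraries and by at most 14.3, and by under 10 points in 12 of 15 libraries. The largest differences were 14.3 in spinetoram 1, 12.7 in emamectin benzoate 1 and 11.5 in spinetoram 2. In tetrazolidamide both shares were low, at most 6.04%, which keeps their difference small.

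As a description over the 15 libraries, the Pearson correlation of log2(FPKM + 1) ran from 0.766 to 0.960 for the 12 gene pairs within a set and from -0.955 to -0.648 for the 16 pairs between sets. The points share library, depth and the 3 tetrazolidamide libraries.

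**Figure D4:**
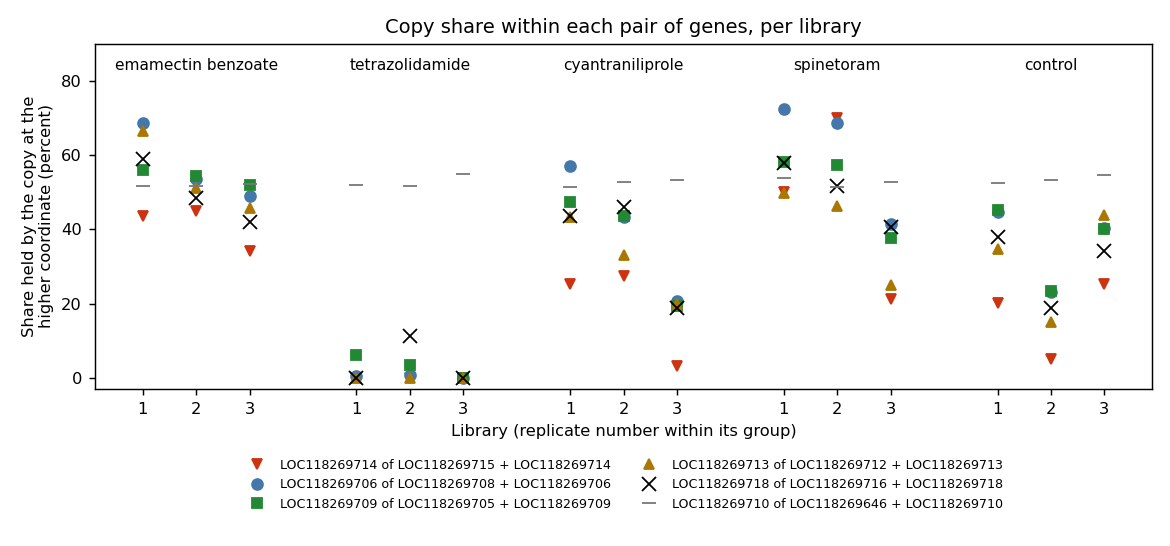
Share of each gene pair's summed FPKM held by the copy at the higher coordinate, in percent, per library. The 4 helicase pairs (coloured) and the neighbouring pair LOC118269716 and LOC118269718 (crosses) lie at 0% to 11.1% in tetrazolidamide and vary between replicates elsewhere, while the glucosidase pair (dashes) stays between 51.4% and 54.9%.

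The genes around the cluster are also present as pairs. Before each set lie genes described as WD repeat-containing protein 36, a small-subunit processome protein (LOC118269645 and LOC118269704), splicing factor 3A subunit 3, part of the U2 snRNP (LOC118269647 and LOC118269711), and glucosidase 2 subunit beta, which acts in glycoprotein folding in the endoplasmic reticulum (LOC118269646 and LOC118269710). After each set lies an uncharacterized gene (LOC118269716 and LOC118269718). Another 2 uncharacterized genes, LOC118269948 and LOC118269947, stand only before set A. Of the 14 neighbours, 12 were tested.

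The uncharacterized pair after each set resembled the helicases. LOC118269718, beside set B, held 59.1%, 48.4% and 41.9% of the FPKM of its pair in emamectin benzoate, 0%, 11.1% and 0% in tetrazolidamide, 43.6%, 46% and 18.9% in cyantraniliprole, 57.9%, 51.8% and 40.7% in spinetoram, and 37.9%, 18.7% and 34.2% in control. Tetrazolidamide was lowest here too, and control 2 and cyantraniliprole 3 were the lowest of the rest. By edgeR's quasi-likelihood test across all 15505 genes, LOC118269718 missed the threshold in tetrazolidamide (0.283 ± 0.491 CPM against 2.35 ± 1.06 in control, n = 3 each; log2 fold change -3.04, SE 1.16, adjusted p = 0.0806). Without tetrazolidamide 2, the library with reads, its adjusted p was 0.000291. LOC118269716, beside set A, had 6.49 ± 0.967 CPM in tetrazolidamide against 5.31 ± 1.32 in control (adjusted p = 0.496).

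The WD repeat and glucosidase pairs before each set did not split in this way. The WD repeat pair kept 39.4% to 55.1% of its FPKM on the set B side, and the glucosidase pair 51.4% to 54.9%, in all 15 libraries. The glucosidase sum meanwhile ran from 1.42 to 21.7 FPKM. How alike the neighbouring copies are in sequence was not analysed, and whether the counting split reads between them was not tested. The genes of a pair may thus not be separate results, here and in the calls below. Both splicing factor genes were at or near 0 in tetrazolidamide, so no share of that pair is read there. LOC118269647 had 0, 0 and 0.0930 FPKM in tetrazolidamide against 1.70, 1.24 and 1.70 in control, and LOC118269711 had 0, 0.0502 and 0 FPKM in tetrazolidamide against 1.56, 1.08 and 2.49 in control. Both fell by edgeR's test, with adjusted p = 0.00344 and 0.000812 (22.3% of tested genes changed in this comparison), and both calls held in each of the 15 fits that left out 1 library.

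Both glucosidase genes fell in tetrazolidamide. LOC118269646 had 1.13, 1.01 and 0.639 FPKM in tetrazolidamide against 4.96, 3.14 and 3.77 in control (log2 fold change -1.98, SE 0.282, adjusted p = 0.000808). LOC118269710 had 1.23, 1.08 and 0.777 FPKM in tetrazolidamide against 5.46, 3.57 and 4.53 in control (log2 fold change -2.01, SE 0.258, adjusted p = 0.000513). Both calls held with each library left out. Both genes rose in emamectin benzoate, LOC118269646 to 9.35 ± 1.45 FPKM against 3.95 ± 0.926 in control (SD, n = 3; log2 fold change 1.29, edgeR adjusted p = 0.0288) and LOC118269710 to 10.1 ± 1.42 against 4.52 ± 0.945 (log2 fold change 1.21, edgeR adjusted p = 0.0267), where 4.09% of tested genes changed. Those 2 calls were lost without control 2 or 3 or any 1 of the 3 emamectin benzoate libraries, with adjusted p up to 0.0865 and 0.0837.

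The next tested genes further along are described as lachesin-like, cell surface proteins of the immunoglobulin family. LOC118269892 rose to 6.19 ± 0.685 CPM in tetrazolidamide, against 2.64 ± 0.739 in control (n = 3 each; log2 fold change 1.23, SE 0.250, edgeR adjusted p = 0.00484), and LOC118270127 did not pass (adjusted p = 0.558). The WD repeat genes, the 2 uncharacterized genes before set A and LOC118269716 passed in none of the 4 comparisons, and their edgeR adjusted p-values ran from 0.0737 upwards. The lowest of these, LOC118269645 in spinetoram, was 0.0277 without control 1.

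Genes of ribosome assembly, the process in which pitchoune works, were taken as a list by description. Of 135 such genes 119 were tested, among them the WD repeat-containing protein 36 genes named above. In tetrazolidamide 13 rose and 4 fell, 14.3% of the list, beside 22.3% of all tested genes (10.9% higher and 11.4% lower), and the median log2 fold change was 0.0535 against -0.0652 for all genes. In spinetoram none rose and 15 fell, 12.6% of the list, beside 4.01% of all tested genes (2.89% higher and 1.12% lower), and the median was -0.365 against -0.0215. In emamectin benzoate 4 fell and none rose, 3.36% of the list, where 2.31% of all tested genes rose and 1.78% fell, and the median was -0.211 against 0.0221. In cyantraniliprole 2 fell and none rose, 1.68% of the list, beside 2.62% of all tested genes (1.99% higher and 0.626% lower), and the median was -0.180 against -0.0340. At an unadjusted p under 0.05, edgeR counted 4 higher and 14 lower in emamectin benzoate and 19 higher and 10 lower in tetrazolidamide. In cyantraniliprole it counted 3 higher and 23 lower, and in spinetoram 3 higher and 48 lower. At that cut 3070, 5495, 3139 and 3324 of all 15505 tested genes passed, in the same order of treatments. DESeq2 called 1, 15, 0 and 0 of the list higher and 8, 7, 11 and 32 lower.

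The spinetoram count at the adjusted p in edgeR rested on single libraries. It was 0 without control 2, 3 and 5 without spinetoram 2 or 1, 9 without spinetoram 3, 9 and 7 without emamectin benzoate 1 or 2, and 8 without tetrazolidamide 1. The tetrazolidamide count was 6 and 10 without control 1 or 2, and 10, 9 and 8 without tetrazolidamide 1, 2 or 3.

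Nucleolar protein 12 (LOC118270583), a factor of the large ribosomal subunit in yeast, rose to 47.2, 52.7 and 51.8 CPM in tetrazolidamide, against 22.7, 27.3 and 21.9 in control. The groups stood well apart (log2 fold change 1.08, SE 0.150, edgeR adjusted p = 0.000708), and the call held with each library left out. The WD repeat protein WDR74 (LOC118278637), known for work on the large subunit, rose to 5.60 ± 0.862 CPM in tetrazolidamide against 2.12 ± 0.721 in control (SD, n = 3; edgeR adjusted p = 0.00862). A second gene with that description, LOC118278636, chosen after its values were seen, fell by 0.83 on the log2 scale (adjusted p = 0.0240). Ribosome production factor 1 (LOC118262621), a large-subunit factor, fell to 3.47 ± 0.687 CPM in tetrazolidamide against 7.43 ± 1.07 in control (edgeR adjusted p = 0.00481). RPAC2 is a subunit shared by RNA polymerases I and III. Its gene LOC118263600 had 0 CPM in each tetrazolidamide library, against 0.333, 1.22 and 0.0996 in control (edgeR adjusted p = 0.0188). That call was lost without tetrazolidamide 1 or 3, with adjusted p up to 0.0518. Other genes with these descriptions were called by edgeR in no comparison: LOC118263613 (RPAC2), LOC118262619 (ribosome production factor 1) and LOC118263997 (nucleolar protein 12). Their values are not given here.

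In spinetoram the falling genes included WD repeat-containing protein 43 (LOC118276988), a small-subunit processome factor, at 19.2 ± 0.762 CPM against 34.6 ± 5.15 in control (SD, n = 3; edgeR adjusted p = 0.0149). EBP2 (LOC118282237), a large-subunit factor, fell to 12.5 ± 1.15 CPM in spinetoram against 23.2 ± 3.53 in control (edgeR adjusted p = 0.0152). Both calls ended without control 2 (adjusted p = 0.0612 and 0.0638). Other genes described as EBP2, LOC118262079 and LOC118261920, were called by edgeR in no comparison. Fibrillarin (LOC118276839), the methyltransferase of box C/D small nucleolar RNPs, fell to 48.7 ± 6.92 CPM in spinetoram against 94.4 ± 25.2 in control (log2 fold change -0.95, SE 0.194, edgeR adjusted p = 0.0237). That call was lost without control 2 or spinetoram 1 or 2, with adjusted p up to 0.0940. Fibrillarin did not pass in emamectin benzoate, tetrazolidamide or cyantraniliprole (adjusted p = 0.0741, 0.117 and 0.201), and passed in all 3 without control 3, with adjusted p = 0.0183, 0.0143 and 0.0314.

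Of the same list, EBP2 and the RRP12-like gene LOC118274923 fell in emamectin benzoate to 14.4 ± 1.97 and 12.8 ± 1.18 CPM, against 23.2 ± 3.53 and 20.0 ± 2.61 in control (edgeR adjusted p = 0.0340 and 0.0256). Both calls were lost without control 1 or 2 or emamectin benzoate 1 or 3, and EBP2 also without emamectin benzoate 2, with adjusted p up to 0.142. EBP2 and MPP10 (LOC118280667), a protein of the U3 small nucleolar RNP, fell in cyantraniliprole to 14.6 ± 1.27 and 9.48 ± 0.0737 CPM, against 23.2 ± 3.53 and 13.7 ± 0.739 in control (edgeR adjusted p = 0.0444 and 0.0464). Each of those 2 calls held in only 3 of the 15 fits with a library left out.

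**Figure D5:**
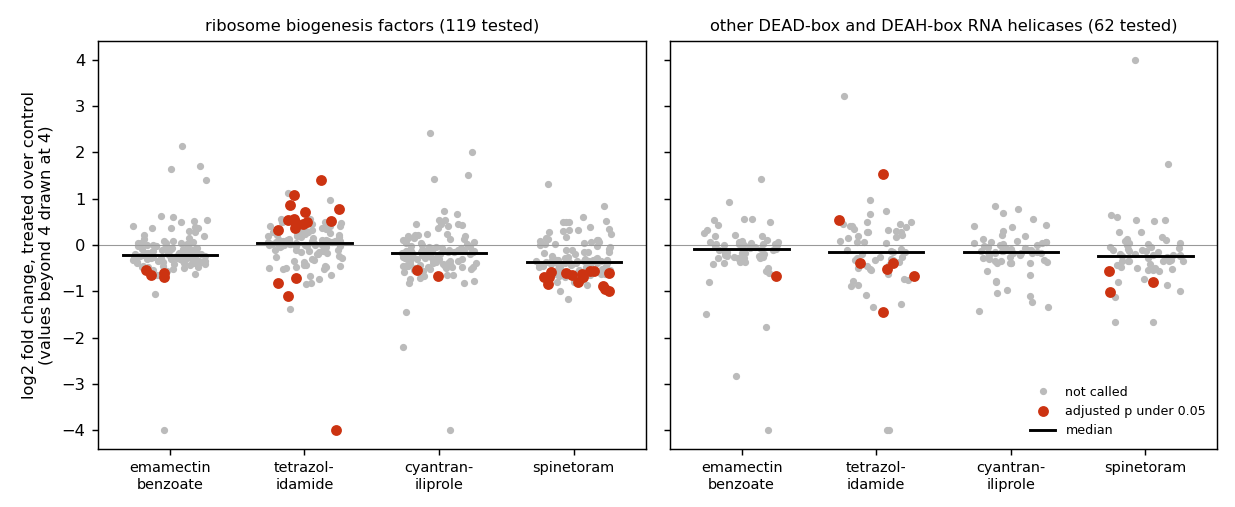
Log2 fold change of each treatment over control for 119 ribosome biogenesis factors and 62 other RNA helicases (points; red where the edgeR adjusted p is under 0.05, bars for medians, values beyond 4 drawn at the edge). The red points of spinetoram in the left panel lie below 0, and those of tetrazolidamide mostly above.

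Among other DEAD-box and DEAH-box RNA helicases, 62 of 68 were tested. The pattern took any gene described as an RNA helicase, so not every member need be of these 2 families. Armi, for example, is described only as a probable RNA helicase. The list also drew in LOC118268246, described as the DNA helicase DDX11. In tetrazolidamide 2 rose and 5 fell by edgeR, 11.3% of the list, beside 22.3% of all tested genes (10.9% higher and 11.4% lower). In spinetoram none rose and 3 fell, 4.84% of the list, beside 4.01% of all tested genes (2.89% higher and 1.12% lower). In emamectin benzoate none rose and 1 fell, 1.61% beside 4.09% of all tested genes, and in cyantraniliprole none passed, beside 2.62%. The median log2 fold changes were -0.0845 in emamectin benzoate, -0.141 in tetrazolidamide, -0.146 in cyantraniliprole and -0.235 in spinetoram, against 0.0221, -0.0652, -0.0340 and -0.0215 for all genes. At an unadjusted p under 0.05, edgeR counted 7 helicases in cyantraniliprole, 2 higher and 5 lower, and DESeq2 called 0 higher and 2 lower. In emamectin benzoate the edgeR counts were 1 higher and 4 lower, and DESeq2 called 1 and 1. In spinetoram they were 5 higher and 12 lower, and DESeq2 called 2 and 5. At that unadjusted cut 3070, 3139 and 3324 of all 15505 tested genes passed in emamectin benzoate, cyantraniliprole and spinetoram. In tetrazolidamide edgeR counted 9 helicases higher and 11 lower at that cut, where 5495 of all tested genes passed. DESeq2 called 7 higher and 11 lower in tetrazolidamide, and its total over all genes there is not given here. At the adjusted p in edgeR, the tetrazolidamide count was 3 without control 2 or tetrazolidamide 3. The spinetoram count ran from 0 to 5 as single libraries were left out, and was 0 without control 2, emamectin benzoate 2 or spinetoram 1 or 2, and 5 without control 3. It was 2 without tetrazolidamide 2 or 3 or cyantraniliprole 3, and 1 without any of the rest.

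The helicase armi (LOC118279765), a piRNA pathway protein in Drosophila, fell to 1.71 ± 0.301 CPM in tetrazolidamide against 4.65 ± 1.25 in control (SD, n = 3; log2 fold change -1.44, SE 0.258, edgeR adjusted p = 0.00253). Ddx1 (LOC118275218), known for a part in tRNA ligation, fell to 11.0 ± 0.612 CPM in tetrazolidamide against 17.4 ± 1.99 in control (edgeR adjusted p = 0.00812). Both calls held with each library left out. Another gene described as armi, LOC118273943, was called by edgeR in no comparison. The p62-like gene LOC118272656 and the helicase A-like gene LOC118266482 rose in tetrazolidamide to 49.2 ± 2.58 and 139 ± 60.1 CPM, against 33.7 ± 5.22 and 48.2 ± 12.2 in control (edgeR adjusted p = 0.0243 and 0.0361). Each held in 10 of 15 fits with a library left out. Both were lost without control 2 or 3 or tetrazolidamide 2, LOC118272656 also without tetrazolidamide 3 or cyantraniliprole 3 (adjusted p up to 0.0944), and LOC118266482 also without control 1 or tetrazolidamide 1 (adjusted p up to 0.130).

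DDX54 (LOC118268544), a nucleolar helicase, fell to 10.1 ± 1.58 CPM in spinetoram against 17.6 ± 1.55 in control (edgeR adjusted p = 0.0332), and DDX28 (LOC118265268), known from mitochondrial ribosome assembly, to 0.857 ± 0.135 against 1.72 ± 0.0357 (edgeR adjusted p = 0.0423). DDX54 was lost without control 2, emamectin benzoate 2 or spinetoram 1 or 2 (adjusted p up to 0.121), and DDX28 held in only 4 of 15 such fits. Another gene described as DDX28, LOC118265263, was called by edgeR in no comparison. The helicase bel (LOC118262446), a translation factor in Drosophila, fell to 109 ± 8.67 CPM in emamectin benzoate against 171 ± 17.6 in control (edgeR adjusted p = 0.0415) and held in 6 of 15, with adjusted p up to 0.163 in the others. The translation helicase eIF4A (LOC118273207) passed in none, at 1464 to 1512 CPM on average in the 4 treatments against 1210 ± 97.9 in control, with edgeR adjusted p from 0.127 to 0.211.

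Myc (LOC118272358), the regulator of pitchoune in Drosophila, had 32.1, 26.4 and 30.1 CPM in tetrazolidamide, against 89.2, 53.8 and 44.5 in control. It fell and the groups did not overlap (log2 fold change -1.08, SE 0.342, edgeR adjusted p = 0.0400), but the call was lost without control 1 or 2 or any of the 3 tetrazolidamide libraries, with adjusted p up to 0.155. In emamectin benzoate, cyantraniliprole and spinetoram Myc did not pass (37.3 ± 11.4, 42.2 ± 10.5 and 57.4 ± 21.8 CPM against 62.5 ± 23.6 in control; edgeR adjusted p = 0.248, 0.375 and 0.874). Its partner Max (LOC118275464) passed in none, with 34.6 ± 2.13 CPM in tetrazolidamide against 26.2 ± 6.98 in control (edgeR adjusted p = 0.164, and 0.0443 without control 3). Max-like protein X (LOC118268229) rose to 116 ± 17.8 CPM in tetrazolidamide against 66.0 ± 24.0 in control (edgeR adjusted p = 0.0338), which was lost without control 1 or 2, tetrazolidamide 1 or 2 or cyantraniliprole 3, with adjusted p up to 0.132.

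Germline genes, of cells that can be rich in nucleolar factors, were also taken as a list, and 20 of 23 were tested. The description patterns also drew in microvitellogenin-like genes, so the list is not one of germline cells alone. In tetrazolidamide 1 rose, 8 fell and 11 did not pass. That is 45.0% of the list, beside 22.3% of all tested genes (10.9% higher and 11.4% lower), and the median log2 fold change was -0.735 against -0.0652 for all genes. Among the 8 that fell were the microvitellogenin-like genes LOC118278182, LOC118280951 and LOC118281239 (log2 fold change -2.67, -2.33 and -2.30). Tudor-like LOC118272723 fell to 45.95 ± 7.79 CPM in tetrazolidamide against 87.7 ± 11.7 in control (SD, n = 3; edgeR adjusted p = 0.00187), and LOC118278182, described as like microvitellogenin, an egg protein that moths make in the fat body, fell to 0.477 ± 0.181 against 3.05 ± 1.08 (edgeR adjusted p = 0.00276). The tudor and KH domain gene LOC118272188 rose (adjusted p = 0.0307), a call lost without control 1 or 3 or tetrazolidamide 3. The list summed to 176 to 255 FPKM in emamectin benzoate, 48.0 to 224 in tetrazolidamide, 127 to 202 in cyantraniliprole, 95.1 to 276 in spinetoram and 143 to 335 in control, and its part in the helicase levels was not tested. In the other 3 treatments edgeR called none of the list. At an unadjusted p under 0.05 it counted 1, 5 and 3 of the 20 in emamectin benzoate, cyantraniliprole and spinetoram, all lower. At that cut 3070, 3139 and 3324 of all 15505 tested genes passed. DESeq2 called 0, 2 and 3 of the list, all lower.

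The genes most like the summed level over the 15 libraries were ranked by Pearson correlation of log2(FPKM + 1), as a description. TMA7 homolog (LOC118279809), linked to translation in yeast, came first at r = 0.941, and nucleolar protein 12 followed at 0.922. The next were the uncharacterized LOC118278866 and LOC118278250 at 0.917 and 0.916, and nucleolar protein 14 homolog (LOC118270217), a small-subunit factor, at 0.915. Those most like LOC118269708 were a StAR-related lipid transfer protein 7-like gene (LOC118278678, r = 0.914), a splicing factor 3A subunit 3 gene on another chromosome sequence (LOC118272931, 0.913), TMA7 homolog (0.895), nucleolar protein 12 (0.894) and the uncharacterized LOC118269843 (0.894). The 15 points share library and depth, and the 3 tetrazolidamide libraries weigh heavily in each value.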

How the data were processed

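RNA-seq of 15 whole-body libraries, 3 per group by their labels, was used from one deposited table of 20784 genes. Per the labels' protocols, TRIzol extraction was followed by poly(A) selection and dUTP strand marking. The submitters' processing notes name DESeq2, edgeR, StringTie 1.3.4d, HISAT2 2.0.4 and cutadapt 1.9; tool roles, strand handling and genome build are not given in the sources used here. The table holds FPKM as made by the authors, with 0.0001 in place of 0 (set to 0 here), and the authors' estimated counts, deposited as whole numbers in units of about 3.78 per read pair. A floor of 3 read pairs is 11.34 units, and floors cover counting error only.

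The 8 members, the gene lists and the settings were chosen with earlier results of these data known. Levels of members are FPKM, with mean and SD of 3 libraries and no test. Sums, copy shares and ratios were computed from them. Copies were paired by order, strand and description, and split into sets at the widest gap. CPM values use TMM factors.

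Each treatment was compared with control in edgeR 4.0.16 (R 4.3.3; quasi-likelihood, TMM, filterByExpr by group with minimum count 10), in one model of the 15 libraries. A two-sided Benjamini-Hochberg adjusted p under 0.05 over 15505 genes counted as changed. It called 634 genes for emamectin benzoate, 3452 for tetrazolidamide, 406 for cyantraniliprole and 622 for spinetoram. The estimated counts are not read counts, which this test treats them as. The fit was tested on simulated data. Exact tests of 3 against 3 cannot go below p = 0.1 and were not used.

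Lists were patterns on the deposited descriptions. Named genes were the members, tested neighbours, up to 2 rising and 2 falling genes of each list and comparison with the smallest p, Myc, Max, fibrillarin and eIF4A, and the 5 genes most like the sum and the 5 most like the highest member. Alternatives were DESeq2 1.42.0, its size factors in edgeR, no filter, a replicate block, each library left out, TMM-rescaled FPKM, summed CPM, the 6 pitchoune genes alone and shares of counts, and, added after seeing the data, a trimmed ribosome list and set B folds with each library left out. The reference name table, of assembly AGI-APGP_CSIRO_Sfru_2.0, lists 14309 of the table's identifiers and was used only for which genes neighbour each other.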

Additional observations from a re-analysis of the deposited data

How the results depend on the processing

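The tetrazolidamide pattern, with set A above and set B below every control, kept its direction with TMM-rescaled FPKM. TMM scales all genes of a library alike, with factors from 0.843 (tetrazolidamide 3) to 1.13 (control 3). Copy shares do not change with it, and factors this close to 1 could not reverse set B, so for set B the check says little. The log2 ratio of the summed level over control was 0.45 in tetrazolidamide and ran from 0.38 to 0.57 over its alternatives. In spinetoram it was -0.39 and ran from -0.46 to -0.29. In emamectin benzoate and cyantraniliprole it stayed within -0.12 and 0.09 and changed sign with single settings.

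The number of changed genes moved with the tool. DESeq2 called 1783 genes in emamectin benzoate, 1532 in cyantraniliprole and 1880 in spinetoram. It called 2, 18, 2 and 7 other helicases in emamectin benzoate, tetrazolidamide, cyantraniliprole and spinetoram. Of ribosome biogenesis factors it called 9, 11 and 32 in emamectin benzoate, cyantraniliprole and spinetoram, and 15 higher and 7 lower in tetrazolidamide. Its total over all genes in tetrazolidamide is not given here, so these tetrazolidamide counts have no share beside them. The 22.3% given above is the share called by edgeR. Of germline genes it called 2 in cyantraniliprole and 3 in spinetoram. With no low-count filter, 1 helicase was called in spinetoram and 0 ribosome factors in cyantraniliprole. The causes were not tested. A trimmed ribosome list of 116 tested genes, chosen after seeing the data, gave the same number of calls in each comparison.

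The labels give the groups the same replicate numbers. Same-numbered libraries did not deviate together in general (correlation -0.154 to 0.373, median 0.0105). Pairs with different numbers ran from -0.351 to 0.31 (median 0.00268). Control 1 with emamectin benzoate 1 was the highest of all pairs, at 0.373, and control 1 with tetrazolidamide 1 had -0.154. Whether the numbers pair the samples is not known. With a replicate block, 364 genes were called in emamectin benzoate. The block left 0 helicases in emamectin benzoate and 0 in spinetoram, and 1, 0 and 6 ribosome factors in emamectin benzoate, cyantraniliprole and spinetoram.

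With each library left out in turn, calls ran from 45 (without emamectin benzoate 3) to 750 genes in emamectin benzoate, from 78 (without control 2) to 1214 in cyantraniliprole and from 35 (without control 2) to 1118 in spinetoram, the highest all without control 3. In tetrazolidamide they ran from 2397 to 3489. Helicases ran from 0 to 1 in emamectin benzoate, 3 to 9 in tetrazolidamide and 0 to 5 in spinetoram. Ribosome factors ran from 0 to 6, 6 to 17, 0 to 8 and 0 to 22 in emamectin benzoate, tetrazolidamide, cyantraniliprole and spinetoram. Germline genes ran from 0 to 1 in spinetoram.

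With TMM-rescaled FPKM in cyantraniliprole, the summed level was 21.66 and LOC118269715 0.9854 FPKM. As a share of counts, LOC118269715 held 3.857% in cyantraniliprole, LOC118269708 58.97% and LOC118269705 23.93% in tetrazolidamide, and LOC118269705 11.8% and LOC118269709 14.13% in emamectin benzoate. Low depth limits the ratios of the scarcest copies: the 3 controls held about 17.5 read pairs of LOC118269714.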

Other observations

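Further genes with the descriptions of the cluster's neighbours lie on other chromosome sequences and were looked up after the values of the neighbours were seen. Another splicing factor 3A subunit 3 gene, LOC118272931, had 6.65, 7.12 and 6.14 FPKM in tetrazolidamide, against 5.72, 8.39 and 5.23 in control (log2 fold change 0.16, edgeR adjusted p = 0.749). The groups overlapped, while the 2 copies beside the helicases were at or near 0 in tetrazolidamide. Another glucosidase 2 subunit beta gene, LOC118272926, had 15.4 ± 2.89 FPKM in tetrazolidamide against 28.2 ± 6.36 in control (SD, n = 3; log2 fold change -0.74, edgeR adjusted p = 0.0758). Another WD repeat-containing protein 36 gene, LOC118276141, had 1.29 ± 0.146 FPKM in tetrazolidamide against 2.01 ± 0.288 in control (edgeR adjusted p = 0.470).

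The reference name table comes from another assembly of the fall armyworm and lists 4 of the 8 helicase genes, 2 from set A (LOC118269712 and LOC118269708) and 2 from set B (LOC118269709 and LOC118269714). There they stand next to each other with no other gene between them, in the order LOC118269712, LOC118269709, LOC118269708 and LOC118269714. These 4 genes are 1 of each matching pair, in a single run. LOC118269716 precedes them and LOC118269710, LOC118272931 and LOC118276141 follow. In the deposited table, the last 2 of these are the copies named above, on other chromosome sequences than the helicases. Whether the 2 sets are neighbouring copies or 2 versions of 1 locus in the assembly was not tested.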
